A study of Mus musculus with 12 samples.

Results

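The genes described here are 36 genes of glucose uptake, glycolysis and the response to low oxygen, measured by RNA sequencing in C2C12 cells, a mouse muscle line whose dividing myoblasts form multinucleate myotubes in low serum. They were picked by symbol and matched to the Ensembl identifiers of the deposited tables, where Ero1l is the gene also called Ero1a. All 36 had enough counts to be tested, among 14838 genes tested of 48795 listed. They comprise 3 glucose transporters, 10 genes of upper glycolysis, 7 of lower glycolysis, 4 of pyruvate and lactate handling, 4 of the hypoxia-inducible factor (HIF) and its oxygen sensors, and 8 HIF targets outside glycolysis. The cells fell into 4 groups of 3 libraries. The gRc + H2O2 group had 10 µM gRc (ginsenoside Rc, a saponin of ginseng) for 18 h and then 0.25 mM H2O2 for 6 h. The H2O2 group had the vehicle, 0.02% DMSO, for 18 h and then the same peroxide for 6 h. The gRc group had 10 µM gRc for 24 h, and the vehicle group had DMSO alone for 24 h. A tag on the gRc + H2O2 libraries reads 24 h of gRc pretreatment where their description gives 18 h. The protocol describes 5 days in horse serum to form myotubes, while the cell type tag reads myoblasts. All libraries come from 1 cell line, and the labels do not say whether the 3 libraries of a group were separate cultures, so the p-values speak to variation among the sequenced libraries alone, part or all of which could be technical.

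Glycolysis splits glucose into pyruvate, which is either oxidised in mitochondria or reduced to lactate. Muscle uses its own isozymes at several steps of this path, such as PFKM, PGAM2 and ENO3, beside isozymes found in most tissues. HIF is a transcription factor made of an unstable alpha subunit (HIF1A or EPAS1) and a stable partner. When oxygen is present, prolyl hydroxylases of the EGLN family mark the alpha subunit for destruction, so HIF activity is set largely at the protein level. In low oxygen HIF binds a short DNA core and raises glucose transporters, glycolytic enzymes and genes for blood vessel growth. Several of its known targets, among them VEGFA, NDRG1 and ERO1L, also answer to other stress pathways.

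Total counts ran from 19274762 to 31409066 per library. Values below are normalized CPM (counts scaled to a common library size), which compare 1 gene between libraries, or TPM (transcript abundance on a fixed total), which allow for transcript length and compare genes with each other. Differences are log2 fold changes with a standard error (SE) from edgeR's quasi-likelihood test over 14838 genes, and a gene passes at an adjusted p under 0.05. The 5 stress genes Atf3, Ddit3, Hmox1, Gdf15 and Bcl2l11 all rose in both comparisons with peroxide. They were picked with earlier results of these data known, so their rise is a check and not a result. Of all genes 7.57% passed as higher in gRc + H2O2 against gRc and 7.81% in H2O2 against vehicle. The libraries of vehicle replicate 1, vehicle replicate 3 and gRc replicate 3 stood apart on the leading principal component (42.0% of the variance), at -74.0, 86.2 and 87.8. For gRc + H2O2 against gRc, calls of the 36 genes that change without these 3 libraries are given beside the result. Comparisons that use vehicle then rest on 1 vehicle library, so for them only log2 fold changes are given. For isozyme ratios whose call changes, the log2 difference without the 3 libraries is given.

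Peroxide raised 6 of the 36 genes and lowered none, and the same 6 passed in both comparisons, which share no library but share 1 estimate of the spread. They were the glucose transporter Slc2a1, the hexokinase Hk2, the HIF subunit Hif1a, and the HIF targets Vegfa, Ndrg1 and Ero1l. In H2O2 against vehicle the 6 genes were 16.7% of the set, against 15.7% of all genes tested that passed, with 7.81% higher and 7.84% lower. In gRc + H2O2 against gRc they were again 16.7%, against 15.7% of all genes, with 7.57% higher and 8.15% lower. The share of genes that passed was thus close to the background, while all that passed were higher. The median log2 fold change of the 36 genes was 0.21 in H2O2 against vehicle, beside -0.06 over all genes tested. By role, 3 of 8 HIF targets outside glycolysis rose in each comparison, and 1 of the 18 glycolytic enzymes and lactate dehydrogenases did. Counted by whether the libraries of both groups overlap, 13 genes were higher and 1 lower without overlap in gRc + H2O2 against gRc, beside 38.7% of all genes (19.2% higher and 19.5% lower). In H2O2 against vehicle 12 were higher and 1 lower, beside 31.1% of all genes (15.9% higher and 15.2% lower). Without the 3 libraries that stood apart, 12 genes passed in gRc + H2O2 against gRc, where 33.5% of the 15398 genes tested did. Of these 12 genes 10 rose, with Pgam1 at 0.47 (adjusted p = 0.0409), Egln3 at 0.40 (adjusted p = 0.0434), Gpi1 at 0.43 (adjusted p = 0.0302) and Hilpda at 0.90 (adjusted p = 0.013) on the log2 scale beside the 6 above. The other 2 fell, Pgam2 at -1.02 (adjusted p = 0.00495) and Pfkm at -0.74 (adjusted p = 0.0177). Without the 3 libraries, H2O2 against vehicle rests on 1 vehicle library, so no call is read from it. On the log2 scale Hilpda stood at 1.23 and Hif1a at 0.42 there.

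**Figure D1:**
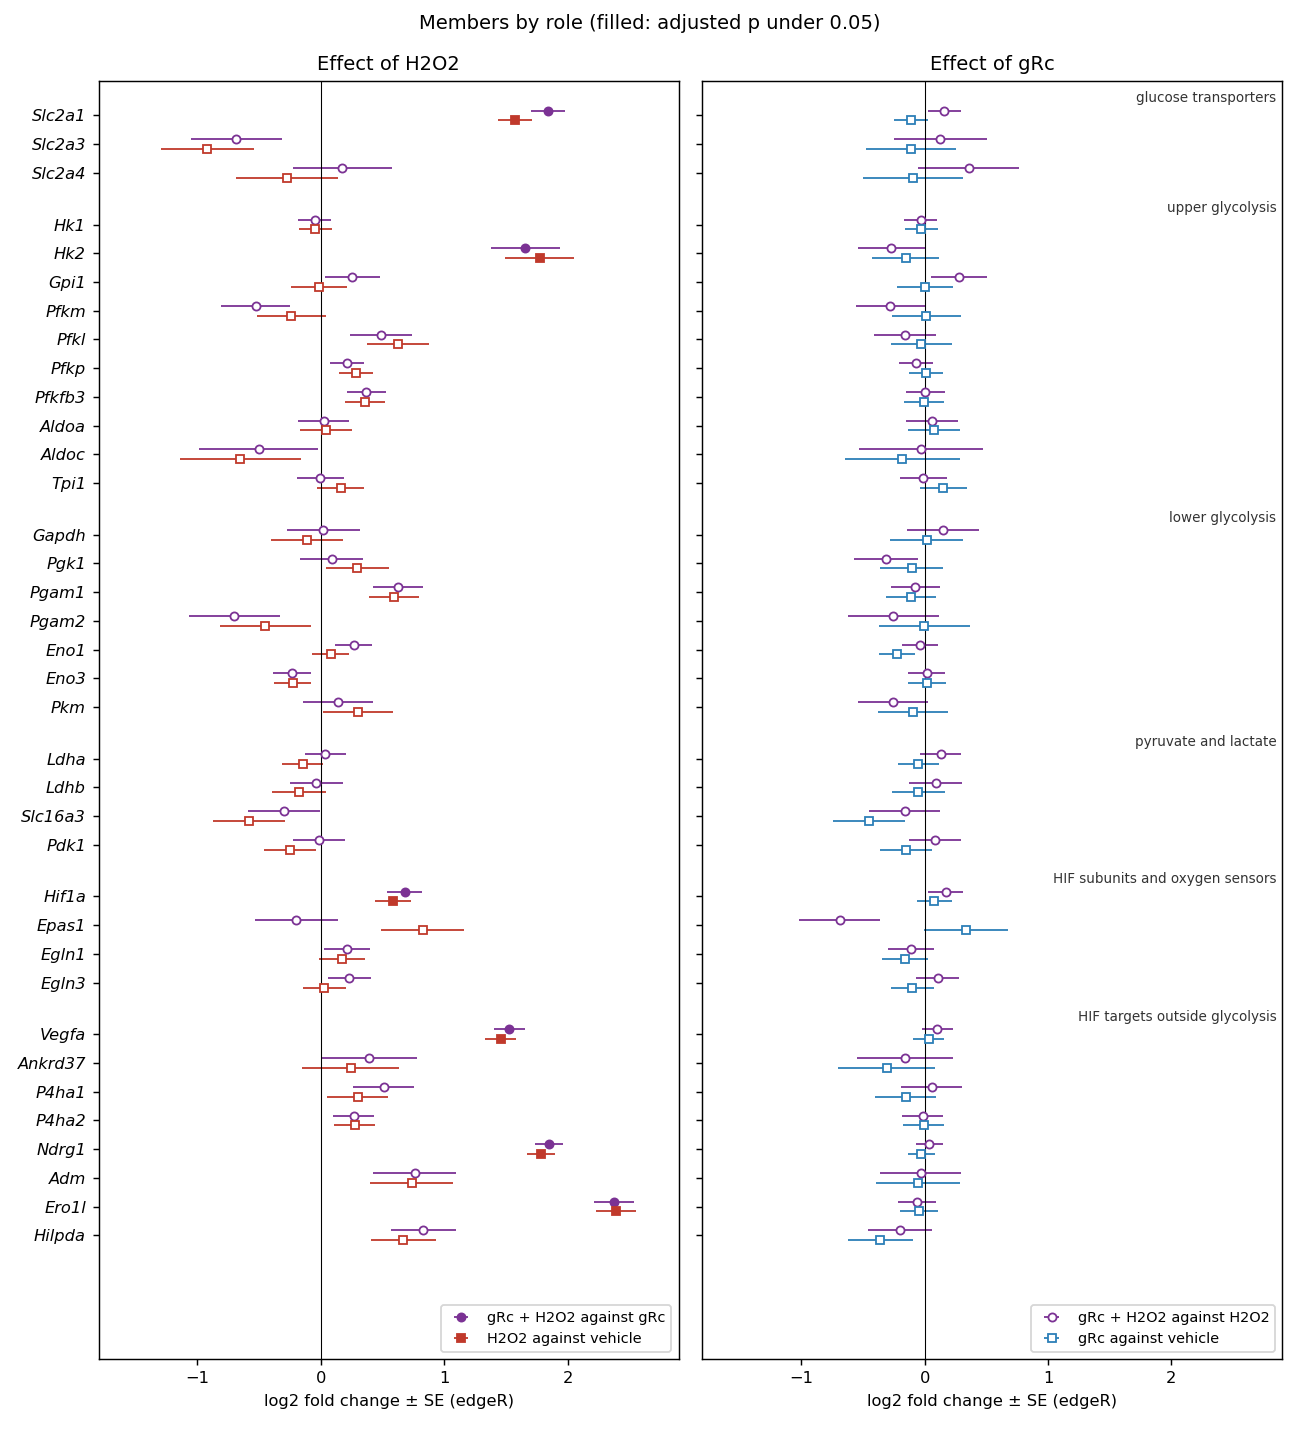
Log2 fold changes with SE of the 36 genes, grouped by role. The left panel shows gRc + H2O2 against gRc and H2O2 against vehicle, the right panel gRc + H2O2 against H2O2 and gRc against vehicle, and filled points have an adjusted p under 0.05. In the left panel 6 genes are filled in both comparisons, and in the right panel none is.

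Slc2a1 encodes GLUT1, the glucose transporter of most cells, and lies at chr4:119108711-119137983 (GRCm38). It stood at 157, 188 and 206 CPM in gRc + H2O2 libraries and 153, 172 and 169 CPM in H2O2 libraries, against 48.2, 48.3 and 57.3 CPM in gRc libraries and 52.2, 57.1 and 56.6 CPM in vehicle libraries. The 6 libraries with peroxide were all far above the 6 without. The log2 fold change was 1.84 (SE 0.14, adjusted p = 3.17e-05) in gRc + H2O2 against gRc, a 3.59-fold rise, and 1.57 (SE 0.14, adjusted p = 8.89e-05) in H2O2 against vehicle. Slc2a1 also carried nearly all the transporter RNA measured here: Slc2a4, which encodes the insulin-responsive transporter GLUT4 of muscle and fat, made up between 0.589% and 1.04% of the TPM of the 3 transporters with peroxide and between 1.88% and 3.48% without. Slc2a4 and Slc2a3, the high-affinity transporter GLUT3 of neurons, lay below 3 CPM in every library and did not pass in either comparison.

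Hk2 encodes hexokinase 2, the inducible hexokinase of muscle that traps glucose in the cell, and lies at chr6:82725025-82774454. It was measured at 291, 289 and 375 CPM in gRc + H2O2 libraries and 404, 327 and 422 CPM in H2O2 libraries, against 105, 119.9 and 77.8 CPM in gRc libraries and 159.6, 106 and 71.3 CPM in vehicle libraries. All libraries with peroxide were above all without it, although the vehicle libraries themselves spanned 2.24-fold. The log2 fold change was 1.66 (SE 0.28, adjusted p = 0.00302) in gRc + H2O2 against gRc and 1.77 (SE 0.28, adjusted p = 0.00223) in H2O2 against vehicle. Hk1, the hexokinase of most tissues, stood at 160.3, 169 and 195 CPM in gRc + H2O2 libraries and 178, 169 and 190.1 CPM in H2O2 libraries, against 185, 192 and 166 CPM in gRc libraries and 199.8, 192 and 162 CPM in vehicle libraries, and these groups overlapped.

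Hif1a, the alpha subunit through which oxygen controls HIF, lies at chr12:73901375-73947530. Its RNA stood at 238, 248 and 213 CPM in gRc + H2O2 libraries and 185, 231 and 205 CPM in H2O2 libraries, against 134, 149 and 153 CPM in gRc libraries and 119, 154 and 140.5 CPM in vehicle libraries. The rise was the smallest of the 6, with log2 fold changes of 0.68 (SE 0.14, adjusted p = 0.00909) in gRc + H2O2 against gRc and 0.59 (SE 0.14, adjusted p = 0.0184) in H2O2 against vehicle. In H2O2 against vehicle the adjusted p became 0.0799 without H2O2 replicate 2 and 0.0600 without H2O2 replicate 3, so this call depends on single libraries. Without the 3 libraries that stood apart the log2 fold change of Hif1a was 0.42. That leaves 1 vehicle library, so no p is read from it. On a TPM scale with limma Hif1a was not called in either comparison (adjusted p = 0.224 in gRc + H2O2 against gRc and 0.0821 in H2O2 against vehicle). Reads of Hif1a were divided between genes by the counting in 10 of 12 libraries, and HIF1A protein was not measured in these libraries.

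Vegfa encodes the main growth factor of blood vessels and lies at chr17:46016993-46032369. It stood at 469.6, 508 and 561 CPM in gRc + H2O2 libraries and 449, 483 and 500.4 CPM in H2O2 libraries, against 176, 183 and 174 CPM in gRc libraries and 164, 186 and 171 CPM in vehicle libraries. The groups without peroxide were tight, and both peroxide groups were clear of them. The log2 fold change was 1.53 (SE 0.13, adjusted p = 5.77e-05) in gRc + H2O2 against gRc and 1.46 (SE 0.13, adjusted p = 8.79e-05) in H2O2 against vehicle.

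Ndrg1, a stress-responsive gene tied to growth arrest, lies at chr15:66929318-66969640. Its level was 268, 286 and 284 CPM in gRc + H2O2 libraries and 273, 290.4 and 253 CPM in H2O2 libraries, against 79.7, 77.6 and 75.0 CPM in gRc libraries and 75.7, 81.3 and 79.6 CPM in vehicle libraries. No library of either peroxide group came near the range of the others. Its log2 fold change was 1.85 (SE 0.11, adjusted p = 8.50e-06) in gRc + H2O2 against gRc and 1.79 (SE 0.11, adjusted p = 1.09e-05) in H2O2 against vehicle.

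Ero1l encodes an oxidase that forms disulfide bonds in the endoplasmic reticulum and makes peroxide as it does so. It lies at chr14:45283087-45318771 and had the largest change of the 36 genes in both comparisons. It was measured at 165, 177 and 181 CPM in gRc + H2O2 libraries and 195, 195 and 154 CPM in H2O2 libraries, against 31.4, 38.91 and 30.3 CPM in gRc libraries and 38.2, 36.1 and 29.4 CPM in vehicle libraries. Every library with peroxide was far above all libraries without it. The log2 fold change was 2.38 (SE 0.16, adjusted p = 1.46e-05) in gRc + H2O2 against gRc, a 5.20-fold rise, and 2.39 (SE 0.16, adjusted p = 1.52e-05) in H2O2 against vehicle.

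**Figure D2:**
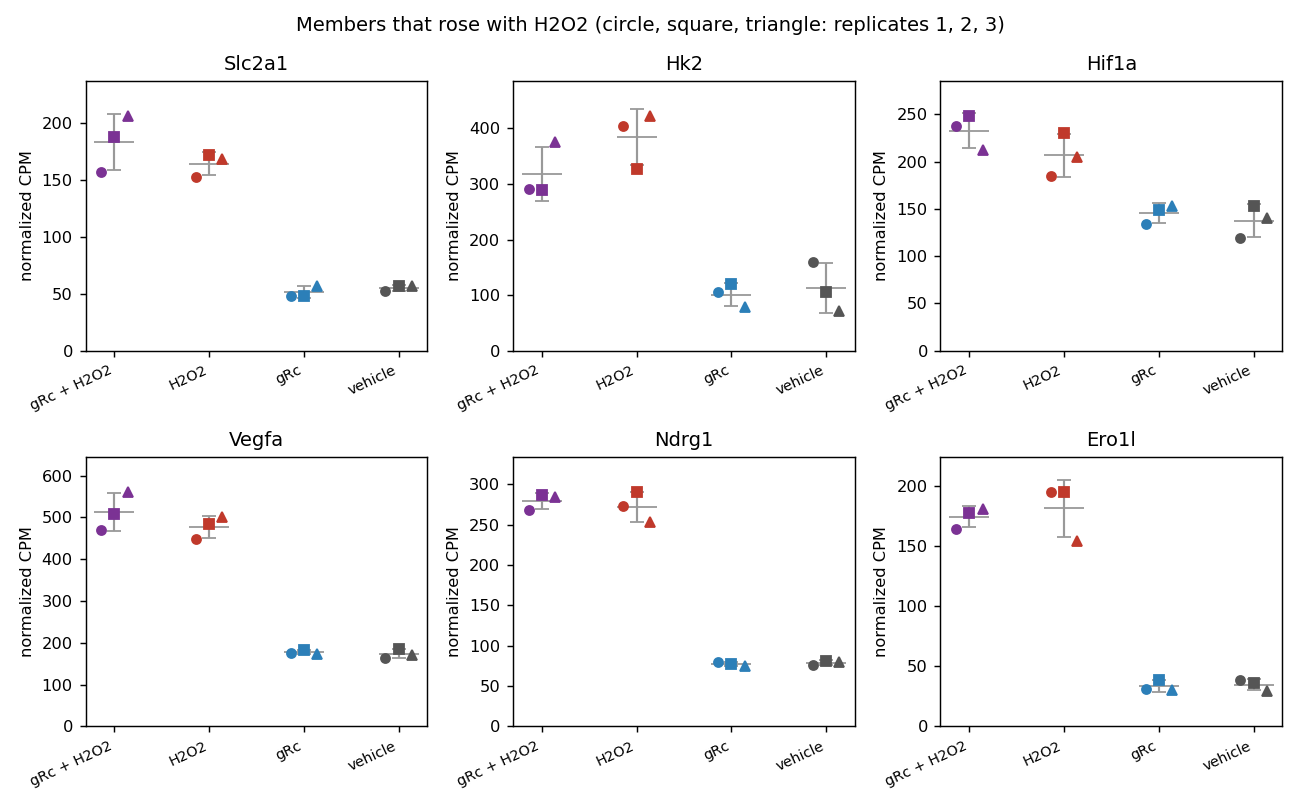
Normalized CPM in each library of the 6 genes that passed in both comparisons with peroxide, with the group mean and SD in grey and symbols for replicates 1 to 3. In each panel the 6 libraries with peroxide lie above the 6 without, from Hif1a at 185 to 248 CPM against 119 to 154 CPM to Ero1l at 154 to 195 CPM against 29.4 to 38.91 CPM.

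The promoters of these genes were searched for the core of the HIF site, because the set was drawn up around HIF. The windows are from RefSeq on GRCm38.p6 and run from 250 bases before each start to 50 after it. The core was searched as ACGTG or GCGTG on both strands, so a core on the other strand reads CACGT or CACGC, and the longer CACGTG, also the site of other factors, holds it on both strands. Windows were found for 32 of the 36 genes and number 47, and the genes without one were Ndrg1, Slc2a3, Slc2a4 and Epas1. A core lay in a window of 5 of the 5 genes that rose and have one, and of 24 of the 27 that did not pass. For Vegfa this was only the window of a start inside the gene. By window, 38 of the 47 held a core (80.9%), against 43.8% of all 32851 promoter windows of the same length. Those windows were not matched for base content, and no share by gene was taken over all genes. The windows below are shown because 4 belong to genes that rose and the other to Ldha, the gene of the set with the most cores, whose level did not pass. Capitals mark the cores. The window of Hif1a belongs to a start inside the span given above for the gene.
Slc2a1 promoter, chr4:119108495-119108794, plus strand: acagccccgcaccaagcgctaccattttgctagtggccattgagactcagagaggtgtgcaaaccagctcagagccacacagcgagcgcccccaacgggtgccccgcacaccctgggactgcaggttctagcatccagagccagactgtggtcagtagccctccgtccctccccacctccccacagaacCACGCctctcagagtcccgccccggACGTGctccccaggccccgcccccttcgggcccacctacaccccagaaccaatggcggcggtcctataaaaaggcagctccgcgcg
Hk2 promoter, chr6:82774405-82774704, minus strand: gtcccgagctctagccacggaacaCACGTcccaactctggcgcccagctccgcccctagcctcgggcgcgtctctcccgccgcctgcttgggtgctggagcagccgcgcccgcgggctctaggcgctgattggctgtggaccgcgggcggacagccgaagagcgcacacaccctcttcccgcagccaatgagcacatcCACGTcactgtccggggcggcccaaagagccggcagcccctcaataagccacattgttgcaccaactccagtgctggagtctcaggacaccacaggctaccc
Hif1a promoter, chr12:73907617-73907916, plus strand: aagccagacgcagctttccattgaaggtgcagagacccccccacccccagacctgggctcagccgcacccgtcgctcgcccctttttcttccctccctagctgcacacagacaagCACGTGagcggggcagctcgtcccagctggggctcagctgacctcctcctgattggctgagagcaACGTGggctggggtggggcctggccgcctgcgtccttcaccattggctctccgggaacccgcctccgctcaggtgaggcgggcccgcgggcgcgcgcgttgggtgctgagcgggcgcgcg
Ero1l promoter, chr14:45318523-45318822, minus strand: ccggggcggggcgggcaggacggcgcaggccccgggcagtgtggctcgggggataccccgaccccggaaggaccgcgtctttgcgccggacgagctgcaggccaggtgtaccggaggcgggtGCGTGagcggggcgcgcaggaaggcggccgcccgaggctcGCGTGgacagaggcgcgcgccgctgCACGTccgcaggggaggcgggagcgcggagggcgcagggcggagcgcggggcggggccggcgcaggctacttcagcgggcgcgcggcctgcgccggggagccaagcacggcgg
Ldha promoter, chr7:46845554-46845853, plus strand: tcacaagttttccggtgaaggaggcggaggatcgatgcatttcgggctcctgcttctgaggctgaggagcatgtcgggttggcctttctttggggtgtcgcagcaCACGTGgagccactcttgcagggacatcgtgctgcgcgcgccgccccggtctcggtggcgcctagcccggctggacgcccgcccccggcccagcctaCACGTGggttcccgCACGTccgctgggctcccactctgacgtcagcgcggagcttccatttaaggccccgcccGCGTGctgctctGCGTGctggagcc
Slc2a1 and Hk2 hold 2 cores each, Hif1a and Ero1l 3 each and this window of Ldha 7, where CACGTG counts for 2. Vegfa has a pair of windows. The 1 with 2 cores, at chr17:46025114-46025413, belongs to a start inside the span given above for the gene. The window at the outer start of the gene, at chr17:46032328-46032627, has 0. TGATGNAA is the core of the element bound by ATF4 with C/EBP factors in the amino acid and unfolded protein responses. This motif was in none of the 47 windows and in 3.97% of all windows. At so low a share, its absence from 47 windows is not read as a result. These matches are a description of letters and not of bound sites.

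Most glycolytic enzymes did not pass the test. Of the 18 glycolytic enzymes and lactate dehydrogenases, 17 did not pass in either comparison, and their median log2 fold change was 0.03 in gRc + H2O2 against gRc and 0.01 in H2O2 against vehicle. Their summed TPM ran from 13132 to 14192 in the 6 libraries with peroxide and from 12307 to 15698 in the 6 without. The most abundant was Gapdh, which oxidises glyceraldehyde phosphate, at 3943, 3874 and 3851 TPM in gRc + H2O2 libraries and 3834, 3979.9 and 3588 TPM in H2O2 libraries, against 4307, 3684 and 6688 TPM in gRc libraries and 2595, 4035 and 7177 TPM in vehicle libraries. Vehicle replicate 3 was 2.52-fold above vehicle replicate 1 in CPM, and the libraries with peroxide lay between them. In H2O2 against vehicle the 95% interval of its log2 fold change was -0.76 to 0.54, so a change of moderate size in either direction could not be told from 0. Pgk1, which makes ATP in the next step, had an interval of -0.27 to 0.86, and Pkm, which makes pyruvate, 1 of -0.32 to 0.92. Aldoa, Tpi1, Gpi1 and Eno1 had log2 fold changes between -0.02 and 0.16 in H2O2 against vehicle. In gRc + H2O2 against gRc they were 0.26 for Gpi1 and 0.27 for Eno1, with Aldoa and Tpi1 close to 0. Reads of Pgam1, Pkm, Gpi1, Gapdh, Pgk1 and Eno1 were divided between genes by the counting in all 12 libraries, and summing near-identical copies changed no call of the 36 genes.

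Pgam1, the phosphoglycerate mutase of most tissues, came closest to the threshold among the enzymes below it. It stood at 545, 497 and 596 CPM in gRc + H2O2 libraries and 534, 559 and 632 CPM in H2O2 libraries, against 334, 449.9 and 277 CPM in gRc libraries and 431, 411 and 301 CPM in vehicle libraries, without overlap between groups with and without peroxide. The log2 fold change was 0.63 (SE 0.20, adjusted p = 0.0601) in gRc + H2O2 against gRc and 0.59 (SE 0.20, adjusted p = 0.0729) in H2O2 against vehicle. Pfkl, the liver-type phosphofructokinase, had log2 fold changes of 0.49 (SE 0.25, adjusted p = 0.229) and 0.62 (SE 0.25, adjusted p = 0.12) in the same comparisons. Pfkfb3, which makes the activator of phosphofructokinase, had log2 fold changes of 0.37 (SE 0.16, adjusted p = 0.159) and 0.36 (SE 0.16, adjusted p = 0.166).

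Muscle isozymes were then set beside the general ones. The muscle list held Hk2, Pfkm, Aldoa, Pgam2, Eno3 and Slc2a4. The general list held Hk1, Pfkl, Pfkp, Aldoc, Pgam1, Eno1 and Slc2a1. Aldoc is the brain form rather than a general one and reached at most 0.678 CPM, so the general medians include a barely detected gene. Of 6 muscle isoforms 1 rose, Hk2, and of 7 general isoforms 1 rose, Slc2a1, in each comparison (16.7% and 14.3%), beside 7.57% of all genes higher in gRc + H2O2 against gRc and 7.81% in H2O2 against vehicle. The median log2 fold change in gRc + H2O2 against gRc was -0.11 for muscle isoforms, 0.27 for general isoforms and 0.80 for HIF targets outside glycolysis. In H2O2 against vehicle it was -0.23 for muscle isoforms, 0.29 for general isoforms and 0.70 for HIF targets outside glycolysis. To compare isozymes within a library, the log2 ratio of their TPM was set between the 6 libraries with peroxide and the 6 without, by an exact two-sided permutation test within gRc-treated and gRc-free libraries, adjusted over 8 pairs, with 0.005 as the smallest p it can give. Of the 8 ratios 5 passed, 1 towards the muscle isozyme and 4 away from it. This test treats same-numbered gRc and vehicle libraries as independent, although they deviated together. With arrangements also held within replicate numbers, the adjusted p of these 5 was 0.05, and 0 passed. Each of the 5 was at the smallest p this form of the test can give. Their adjusted p could have been lower only with more of the 8 ratios at that p. This form pairs same-numbered libraries with and without peroxide, so it too treats same-numbered gRc and vehicle libraries as independent.

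Hexokinase moved towards the muscle form. The share of Hk2 in the TPM of Hk1 and Hk2 was 60.5, 59.8 and 62.8% in gRc + H2O2 libraries and 53.9, 63.0 and 65.4% in H2O2 libraries, against 24.6, 34.1 and 25.0% in gRc libraries and 28.6, 32.4 and 24.6% in vehicle libraries. Hk2 was thus the more abundant of the pair in every library with peroxide and the less abundant in every library without. The log2 ratio differed by 2.00 (n = 6 and 6, exact permutation p = 0.005, adjusted p = 0.008).

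Phosphofructokinase, the enzyme that commits sugar to glycolysis, moved the other way. Pfkm, the muscle type, stood at 341, 321 and 475 CPM in gRc + H2O2 libraries and 538, 379 and 461 CPM in H2O2 libraries, against 669.7, 587 and 382 CPM in gRc libraries and 709, 538 and 377 CPM in vehicle libraries. Pfkl stood at 114, 118 and 159 CPM in gRc + H2O2 libraries and 160.2, 132 and 144 CPM in H2O2 libraries, against 102, 111 and 64.8 CPM in gRc libraries and 116, 101 and 65.8 CPM in vehicle libraries. The libraries that were high for Pfkm without peroxide, replicates 1 and 2 of gRc and of vehicle, were also the higher ones for Pfkl. Pfkp, the platelet type, stood at 114, 112 and 124 CPM in gRc + H2O2 libraries and 120.3, 121 and 125 CPM in H2O2 libraries, against 103, 113 and 87.0 CPM in gRc libraries and 98.2, 114 and 88.4 CPM in vehicle libraries. Neither Pfkm nor Pfkp passed alone. The share of Pfkm in the TPM of the 3 genes was 62.4, 58.9 and 64.0% in gRc + H2O2 libraries and 66.5, 61.0 and 64.1% in H2O2 libraries, against 77.3, 72.0 and 71.9% in gRc libraries and 76.1, 71.4 and 73.6% in vehicle libraries. Pfkm remained the main form in every library, with a lower share in all libraries with peroxide. The log2 ratio to Pfkl differed by -0.85 and that to Pfkp by -0.65 (n = 6 and 6, exact permutation p = 0.005, adjusted p = 0.008 for both). Without the 3 libraries that stood apart, the log2 ratio of Pfkm to Pfkp differed by -0.55. That leaves 1 vehicle library and fewer arrangements, so no p is read from it.

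Phosphoglycerate mutase also moved away from the muscle form. Pgam2, the muscle type, stood at 75.0, 80.0 and 107 CPM in gRc + H2O2 libraries and 105, 92.0 and 116 CPM in H2O2 libraries, against 139, 215 and 72.8 CPM in gRc libraries and 187, 157 and 83.1 CPM in vehicle libraries, with overlapping groups. Its share in the TPM of Pgam1 and Pgam2 was 26.2, 29.5 and 31.5% in gRc + H2O2 libraries and 33.3, 29.7 and 31.9% in H2O2 libraries, against 51.4, 55.0 and 41.2% in gRc libraries and 51.9, 49.2 and 42.1% in vehicle libraries. The groups with peroxide were all lower. The log2 ratio differed by -1.11 (n = 6 and 6, exact permutation p = 0.005, adjusted p = 0.008).

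For enolase the difference did not pass. Eno3, the muscle type, stood at 659, 701 and 796 CPM in gRc + H2O2 libraries and 732, 681 and 719 CPM in H2O2 libraries, against 909.8, 802 and 822 CPM in gRc libraries and 695, 886 and 915 CPM in vehicle libraries. Eno1, the general type, stood at 946, 1053 and 1069.9 CPM in gRc + H2O2 libraries and 1132, 986 and 1031 CPM in H2O2 libraries, against 846, 837 and 867 CPM in gRc libraries and 1163, 901 and 913 CPM in vehicle libraries. In gRc + H2O2 against gRc, Eno3 was lower and Eno1 higher without overlap, while both overlapped in H2O2 against vehicle. The share of Eno3 in their TPM ran from 37.8% to 43.5% with peroxide and from 37.2% to 57.0% without, and vehicle replicate 1 gave the lowest. The log2 ratio differed by -0.45 (n = 6 and 6, exact permutation p = 0.04, adjusted p = 0.0533). Without vehicle replicate 1 the adjusted p was 0.008. Without the 3 libraries that stood apart the log2 ratio differed by -0.39. That leaves 1 vehicle library and fewer arrangements, so no p is read from it. Eno1b, a near-identical copy of Eno1, held between 6023 and 16295 expected counts per library, and with both summed the adjusted p was 0.0333.

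The ratio of Slc2a4 to Slc2a1 differed by -1.78 (n = 6 and 6, exact permutation p = 0.005, adjusted p = 0.008), with Slc2a4 at 1.00, 1.36 and 1.32 CPM in gRc + H2O2 libraries and 0.653, 1.09 and 1.12 CPM in H2O2 libraries, against 0.971, 0.690 and 1.57 CPM in gRc libraries and 0.610, 1.11 and 1.71 CPM in vehicle libraries. Slc2a4 overlapped between the groups with and without peroxide, and Slc2a1 did not. Aldolase was Aldoa in every library, at more than 99.9% of the TPM of Aldoa and Aldoc, the brain form. Aldoa stood at 1375, 1407 and 1444 CPM in gRc + H2O2 libraries and 1447, 1376 and 1233 CPM in H2O2 libraries, against 1463, 1176 and 1522 CPM in gRc libraries and 925, 1324 and 1692 CPM in vehicle libraries. Aldoc was barely detected, at 0.167, 0.221 and 0.528 CPM in gRc + H2O2 libraries and 0.280, 0.271 and 0.372 CPM in H2O2 libraries, against 0.432, 0.366 and 0.482 CPM in gRc libraries and 0.222, 0.519 and 0.678 CPM in vehicle libraries. The ratio of Aldoa to Aldoc differed by -0.01 (n = 6 and 6, exact permutation p = 0.995, adjusted p = 0.995).

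**Figure D3:**
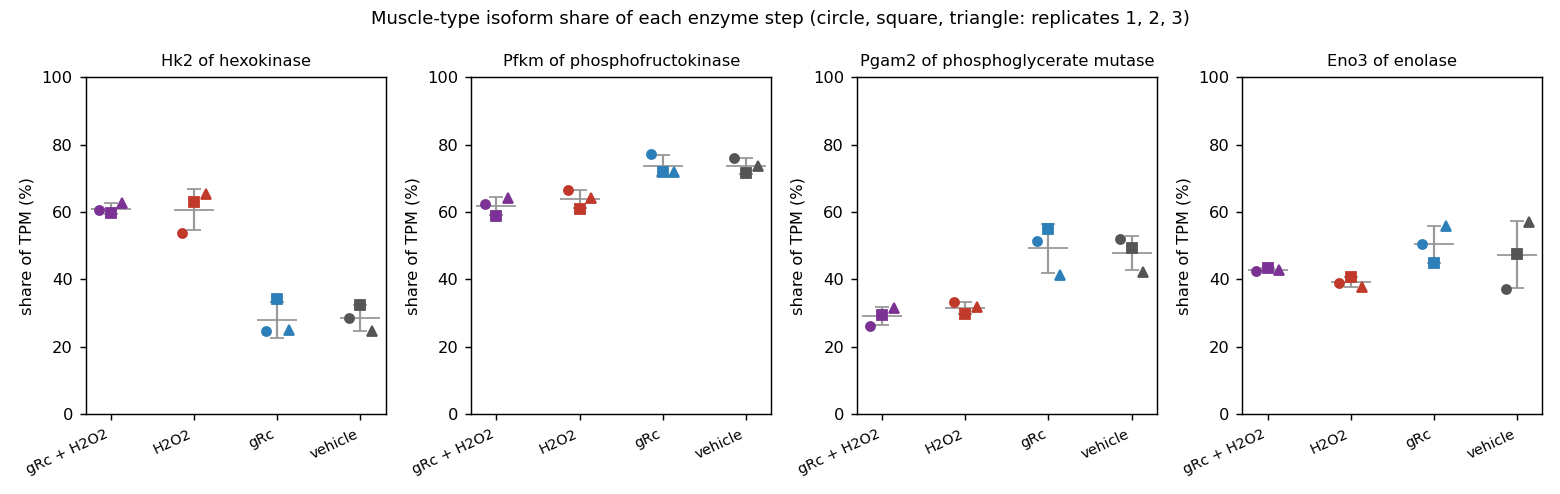
Share of the muscle isozyme in the TPM of its enzyme, as percent, in each library, with the group mean and SD in grey and symbols for replicates 1 to 3. The share of Hk2 is higher in all libraries with peroxide, those of Pfkm and Pgam2 are lower in all of them, and the share of Eno3 is lower in all gRc + H2O2 libraries than in gRc libraries but overlaps between H2O2 and vehicle libraries, where vehicle replicate 1 is the lowest at 37.2%.

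None of the 4 genes of pyruvate and lactate passed. Ldha, the lactate dehydrogenase of muscle and a textbook HIF target, stood at 571, 526 and 713 CPM in gRc + H2O2 libraries and 510.3, 533 and 609 CPM in H2O2 libraries, against 671, 521 and 572 CPM in gRc libraries and 666, 557 and 606 CPM in vehicle libraries. The groups overlapped. The 95% interval of the log2 fold change was -0.33 to 0.40 in gRc + H2O2 against gRc and -0.51 to 0.22 in H2O2 against vehicle. Both end below the log2 rise of Vegfa, but Ldha and Vegfa were not tested against each other. Ldhb, the heart type, stood at 10.7, 11.4 and 13.2 CPM in gRc + H2O2 libraries and 9.37, 10.5 and 13.3 CPM in H2O2 libraries, against 11.3, 15.2 and 9.76 CPM in gRc libraries and 12.5, 14.9 and 10.1 CPM in vehicle libraries. The ratio of Ldha to Ldhb differed by 0.10 (n = 6 and 6, exact permutation p = 0.66, adjusted p = 0.754). Pdk1, a kinase that restrains the oxidation of pyruvate in mitochondria and a HIF target, had log2 fold changes of -0.01 (SE 0.21, adjusted p = 0.976) in gRc + H2O2 against gRc and -0.25 (SE 0.21, adjusted p = 0.473) in H2O2 against vehicle. Slc16a3, the lactate exporter MCT4, had -0.30 (SE 0.29, adjusted p = 0.568) and -0.58 (SE 0.29, adjusted p = 0.207) in the same comparisons. Vehicle replicate 1 was the highest library for both, at 76.5 CPM for Pdk1 and 73.6 CPM for Slc16a3. Without it the log2 fold changes in H2O2 against vehicle were 0.05 for Pdk1 and -0.10 for Slc16a3.

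Of the HIF subunits and sensors only Hif1a passed. Epas1, which encodes HIF2A, stood at 0.400, 0.316 and 0.377 CPM in gRc + H2O2 libraries and 0.466, 0.475 and 0.827 CPM in H2O2 libraries, against 0.396, 0.406 and 0.450 CPM in gRc libraries and 0.277, 0.277 and 0.428 CPM in vehicle libraries, and these levels rest on 5 to 20 counts. Its log2 fold change was -0.20 (SE 0.33, adjusted p = 0.76) in gRc + H2O2 against gRc and 0.83 (SE 0.34, adjusted p = 0.127) in H2O2 against vehicle. Egln1, the main oxygen sensor, stood at 60.2, 66.1 and 83.1 CPM in gRc + H2O2 libraries and 79.1, 70.2 and 77.3 CPM in H2O2 libraries, against 59.1, 66.2 and 55.2 CPM in gRc libraries and 87.1, 58.4 and 55.8 CPM in vehicle libraries. Egln3, a sensor that is itself a HIF target, stood at 101, 98.4 and 99.5 CPM in gRc + H2O2 libraries and 103, 97.5 and 77.1 CPM in H2O2 libraries, against 77.7, 72.5 and 104 CPM in gRc libraries and 91.4, 75.7 and 105 CPM in vehicle libraries. Both sensors overlapped between groups, with 95% intervals of -0.24 to 0.58 for Egln1 and -0.36 to 0.42 for Egln3 in H2O2 against vehicle.

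The other 5 HIF targets outside glycolysis had positive log2 fold changes in both comparisons and did not pass. Hilpda, a lipid droplet protein, had log2 fold changes of 0.83 (SE 0.26, adjusted p = 0.0544) in gRc + H2O2 against gRc and 0.67 (SE 0.26, adjusted p = 0.111) in H2O2 against vehicle. Without vehicle replicate 1 it passed in both, with an adjusted p of 0.0215 in gRc + H2O2 against gRc and 0.0242 in H2O2 against vehicle. Adm, which encodes the vessel-relaxing peptide adrenomedullin, had log2 fold changes of 0.76 (SE 0.33, adjusted p = 0.164) and 0.74 (SE 0.34, adjusted p = 0.168) in the same comparisons. P4ha1 and P4ha2, subunits of the prolyl hydroxylase of collagen, had log2 fold changes of 0.51 and 0.27 in gRc + H2O2 against gRc and 0.30 and 0.27 in H2O2 against vehicle. Ankrd37 stayed below 3.4 CPM in every library.

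The peroxide effect was then averaged over gRc, which uses 6 libraries on each side and the same libraries as above. This fit treats same-numbered gRc and vehicle libraries as independent, although they deviated together. Of the 36 genes 11 rose and 1 fell, beside 31.0% of all genes that passed, 14.6% higher and 16.4% lower. On the log2 scale the genes added were Pgam1 at 0.61 (SE 0.14, adjusted p = 0.00785), Hilpda at 0.75 (SE 0.19, adjusted p = 0.0101), Pfkl at 0.56 (SE 0.18, adjusted p = 0.0336), Pfkfb3 at 0.36 (SE 0.11, adjusted p = 0.0322) and Adm at 0.75 (SE 0.24, adjusted p = 0.0334). Slc2a3 fell by 0.80 on the log2 scale (adjusted p = 0.0389), at levels of 0.839 to 1.43 CPM with peroxide and 1.14 to 2.86 CPM without. Over the 24 alternatives for this average, Pgam1 and Hilpda passed in 24, Pfkl and Slc2a3 in 14, and Pfkfb3 and Adm in 13. Leaving out single libraries gave between 8 genes (without H2O2 replicate 2, gRc + H2O2 replicate 2 or gRc replicate 1) and 16 (without vehicle replicate 1). Without the 3 libraries that stood apart 1 vehicle library is left, so no call is read from the average there. On the log2 scale Pgam2, Pfkm and Eno3 stood at -0.81, -0.49 and -0.30, and P4ha1 and Egln3 at 0.33 and 0.34. Slc2a3, Pfkfb3 and Adm stood at -0.42, 0.27 and 0.56. Of the 36 genes 8 were higher in every library with peroxide than in any without, beside 10.4% of all genes, and 20.5% of all genes did not overlap in either direction.

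None of the 36 genes passed for gRc, with or without peroxide. In gRc + H2O2 against H2O2, 0 of 36 passed, as did 0.0% of all genes, and 0 had an unadjusted p under 0.05, beside 122 of all genes. In gRc against vehicle, 0 of 36 passed, as did 0.0% of all genes, and again 0 had an unadjusted p under 0.05, beside 74 of all genes. DESeq2 also called 0 of the 36 in either. The median log2 fold change was -0.02 in gRc + H2O2 against H2O2 and -0.05 in gRc against vehicle. For the genes that rose with peroxide, the 95% intervals in gRc + H2O2 against H2O2 were -0.14 to 0.46 for Slc2a1, -0.17 to 0.38 for Vegfa, -0.21 to 0.28 for Ndrg1, -0.40 to 0.28 for Ero1l, -0.14 to 0.48 for Hif1a and -0.87 to 0.33 for Hk2. For Slc2a1, Vegfa, Ndrg1 and Ero1l a difference of more than 0.46 in either direction lay outside these intervals, while those of Hk2 were wider. In gRc + H2O2 against H2O2, Gapdh was higher and Pgk1 and Epas1 lower without overlap, beside 15.3% of all genes (7.69% higher and 7.62% lower). In gRc against vehicle, Eno1 was lower without overlap, beside 1.61% of all genes (0.869% higher and 0.741% lower). The interaction of gRc and peroxide passed for 0 of 36 genes, as for 0.0% of all genes, and DESeq2 also called 0 of the 36. It had 0 of 36 genes at an unadjusted p under 0.05, beside 87 of all genes, and its smallest unadjusted p was 0.0541, for the few counts of Epas1.

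**Figure D4:**
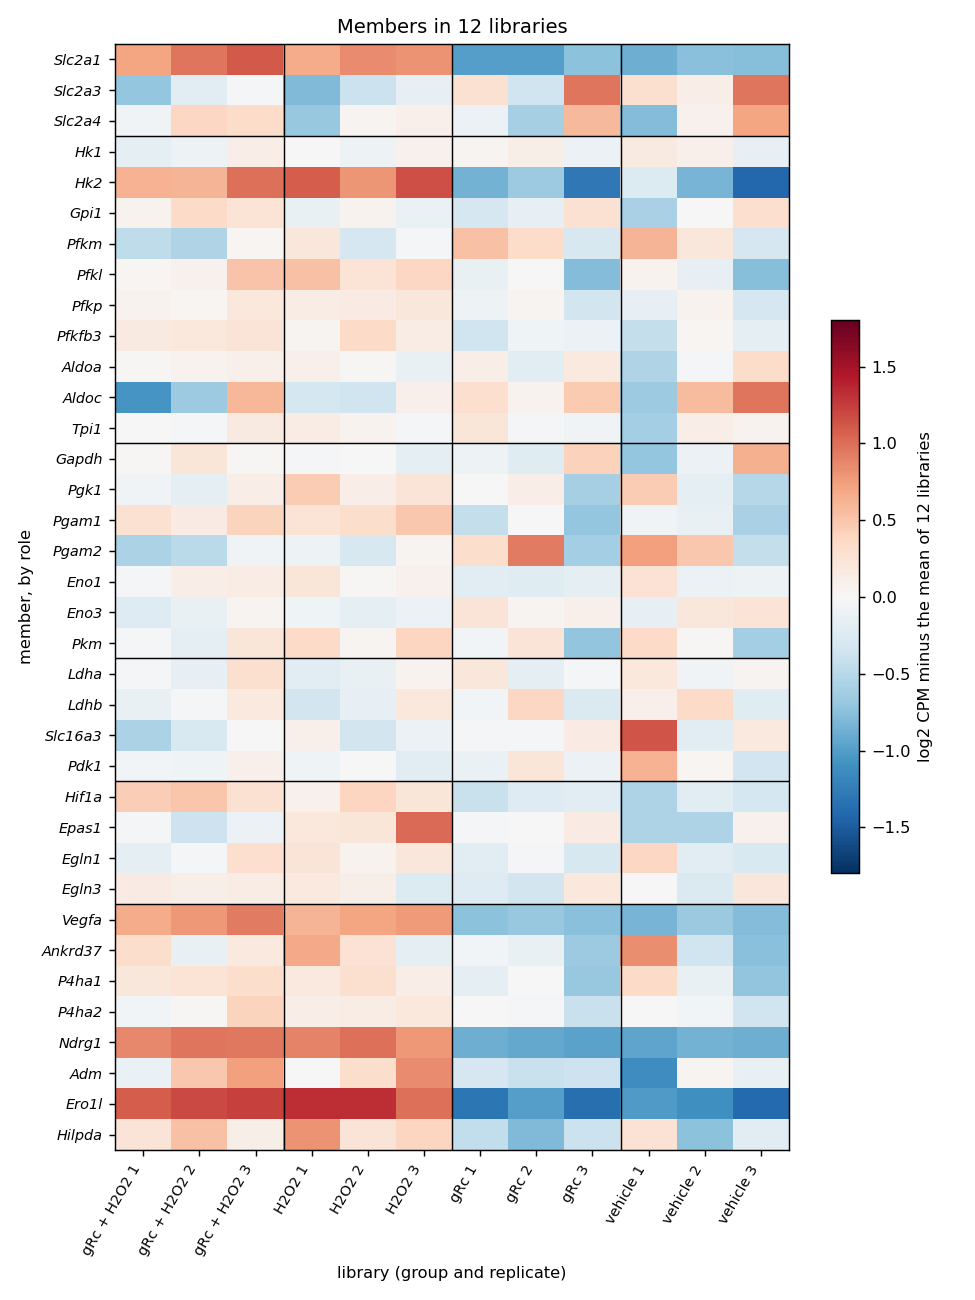
Each of the 36 genes in each of the 12 libraries, as log2 CPM minus the mean of the gene over the 12 libraries, with genes by role and libraries by group. The 6 genes that rose show a block of higher values across the 6 libraries with peroxide, and vehicle replicates 1 and 3 differ from each other for many glycolytic genes.

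Among libraries without peroxide many of the genes varied. Between vehicle replicates 3 and 1, 20 of the 36 genes differed by more than 1.5-fold (55.6%), as did 55.1% of the 12670 genes above a mean of 1 CPM. Gapdh and Gpi1 were higher in vehicle replicate 3, by 1.33 and 0.88 on the log2 scale. Hk2, P4ha1, Pgk1 and Pkm were lower there, by -1.16, -1.05, -0.96 and -0.95. A part of the reads near Pgk1 went to its copy Pgk1-rs7, whose expected count was 17.7% of that of Pgk1 in vehicle replicate 3 and 0.443% in vehicle replicate 1. Vegfa, Ndrg1 and Slc2a1 differed between these replicates by 0.06, 0.07 and 0.12, and varied by at most 1.19-fold over the 6 libraries without peroxide. The cause of the spread between replicates was not tested.

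Genes of the same pathways outside the 36, in lists drawn up with earlier results of these data known, moved in both directions. Of 28 other genes of glycolysis and pyruvate tested, 3 rose and 4 fell in each comparison (25.0%), beside 15.7% of all genes called in each. Log2 fold changes of Adpgk, an ADP-dependent glucokinase, were 0.97 (SE 0.16, adjusted p = 0.00296) in gRc + H2O2 against gRc and 0.83 (SE 0.16, adjusted p = 0.0065) in H2O2 against vehicle. Slc16a1, the lactate transporter MCT1, rose by 0.89 (SE 0.23, adjusted p = 0.0233) in gRc + H2O2 against gRc and 1.17 (SE 0.23, adjusted p = 0.00676) in H2O2 against vehicle. Tigar, which lowers the activator of phosphofructokinase, rose by 0.82 (SE 0.20, adjusted p = 0.019) in gRc + H2O2 against gRc and 0.74 (SE 0.20, adjusted p = 0.0309) in H2O2 against vehicle. Txnip, which restrains glucose uptake, fell, with log2 fold changes of -0.60 (SE 0.15, adjusted p = 0.0185) in gRc + H2O2 against gRc and -0.75 (SE 0.15, adjusted p = 0.00669) in H2O2 against vehicle. Bpgm, an enzyme of red cells that makes bisphosphoglycerate, fell as well, with -0.49 (SE 0.12, adjusted p = 0.0187) in gRc + H2O2 against gRc and -0.50 (SE 0.12, adjusted p = 0.0172) in H2O2 against vehicle. Pdk2, a relative of Pdk1, passed in 1 of them, with -0.58 (SE 0.21, adjusted p = 0.0934) in gRc + H2O2 against gRc and -0.78 (SE 0.21, adjusted p = 0.0302) in H2O2 against vehicle. Of 15 glycogen genes, 2 rose in each comparison (13.3%, beside 7.57% and 7.81% of all genes). They were Ppp1r3c, which targets a phosphatase to glycogen, and the branching enzyme Gbe1. Most of the list had negative values: 6 of 15 were above 0 in gRc + H2O2 against gRc (median -0.20) and 3 in H2O2 against vehicle (median -0.42). With the H2O2 effect averaged over gRc, 2 rose and 5 fell, beside 14.6% and 16.4% of all genes. Ppp1r3c had log2 fold changes of 1.62 (SE 0.25, adjusted p = 0.00189) in gRc + H2O2 against gRc and 1.79 (SE 0.25, adjusted p = 0.0013) in H2O2 against vehicle. Phka2, a regulatory subunit of phosphorylase kinase, passed in 1 of them, with -0.95 (SE 0.28, adjusted p = 0.0441) in gRc + H2O2 against gRc and -0.75 (SE 0.28, adjusted p = 0.103) in H2O2 against vehicle.

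Of 15 other components of the HIF pathway 0 passed with edgeR in either comparison, and 1 in gRc + H2O2 against gRc and 0 in H2O2 against vehicle had an unadjusted p under 0.05. Arnt, the stable partner of HIF alpha subunits, had log2 fold changes of 0.05 (SE 0.12, adjusted p = 0.822) in gRc + H2O2 against gRc and 0.22 (SE 0.12, adjusted p = 0.243) in H2O2 against vehicle. Of 37 other HIF targets, 8 rose and 4 fell in gRc + H2O2 against gRc, and 7 rose and 3 fell in H2O2 against vehicle. These were 32.4% and 27.0% of the list, beside 15.7% of all genes called in each comparison. The list was drawn up with earlier results of these data known, so this difference is not a test of HIF targets. Their median log2 fold change was 0.25 in gRc + H2O2 against gRc and 0.21 in H2O2 against vehicle. Stc2, a secreted glycoprotein, rose on the log2 scale by 1.60 (SE 0.20, adjusted p = 0.000612) in gRc + H2O2 against gRc and 1.57 (SE 0.20, adjusted p = 0.000713) in H2O2 against vehicle. Ak4, a mitochondrial adenylate kinase, rose by 1.37 (SE 0.20, adjusted p = 0.00147) in gRc + H2O2 against gRc and 1.17 (SE 0.20, adjusted p = 0.0034) in H2O2 against vehicle, and Fam162a by 0.88 (SE 0.22, adjusted p = 0.0186) in gRc + H2O2 against gRc and 0.95 (SE 0.22, adjusted p = 0.0131) in H2O2 against vehicle. Bhlhe41, a transcription factor of the circadian clock, passed in 1 of them, with -0.68 (SE 0.26, adjusted p = 0.109) in gRc + H2O2 against gRc and -1.10 (SE 0.26, adjusted p = 0.0165) in H2O2 against vehicle. Ppp1r3c and Gbe1 stand in the glycogen list and in the list of HIF targets.

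Markers of the cell states in such cultures fell in part with peroxide, where 8.15% of all genes fell in gRc + H2O2 against gRc and 7.84% in H2O2 against vehicle. Of 10 markers of myoblasts and reserve cells, 4 fell in gRc + H2O2 against gRc and 5 in H2O2 against vehicle, with a summed level of 680 to 758 CPM in gRc + H2O2 libraries and 687 to 837 CPM in H2O2 libraries, against 923 to 1189.9 CPM in gRc libraries and 897 to 1276 CPM in vehicle libraries. Of 26 markers of myotubes, none was at 0 in all libraries, and 4 fell in gRc + H2O2 against gRc and 1 in H2O2 against vehicle. Their sum was 27831 to 34901 CPM in gRc + H2O2 libraries and 30991 to 36452 CPM in H2O2 libraries, against 30426 to 46549 CPM in gRc libraries and 30963 to 41592 CPM in vehicle libraries. Of 12 markers of cycling cells, 3 fell in gRc + H2O2 against gRc and 2 in H2O2 against vehicle. Of 9 markers of fibroblast-like cells tested, edgeR called 0, and 1 had an unadjusted p under 0.05 in gRc + H2O2 against gRc and 0 in H2O2 against vehicle. The sum of the list was 13284 to 14356 CPM in gRc + H2O2 libraries and 13715 to 18542 CPM in H2O2 libraries, against 19140.4 to 23482 CPM in gRc libraries and 18541 to 39177 CPM in vehicle libraries. Macrophage markers summed to at most 3.09 CPM and endothelial markers to at most 2.33 CPM, with Emcn at 0 in all libraries, and adipocyte markers to at most 0.583 CPM, with Cidec at 0 in all. Fewer cells of a type and less RNA per cell cannot be told apart in these libraries, and the part of the cell mixture in the results was not tested.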

How the data were processed

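Poly-A RNA of 12 C2C12 libraries was sequenced with a directional kit. The authors trimmed the reads, aligned them to GRCm38 with STAR 2.7.3a and deposited RSEM 1.3.3 expected counts per gene, which divide shared reads between genes and are not normalized. The deposited TPM values were scaled by RSEM for effective length within each library. Whether RSEM counted by strand is not given in the sources used here. Expected counts were rounded and tested with edgeR 4.0.16 (R 4.3.3, TMM scaling, quasi-likelihood test, Benjamini-Hochberg adjustment over 14838 genes after edgeR's filter on low counts). All 12 libraries shared one fit of 4 groups, with contrasts for H2O2, gRc, the average of both H2O2 effects and the interaction. SE was the log2 fold change over the square root of F. Gene coordinates came from the GENCODE annotation of GRCm38, and promoters from RefSeq. Script steps were tested on simulated data.

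Alternatives were DESeq2 1.42.0, its size factors, limma 3.58.1 on log2(TPM + 0.5) and log2(TPM + 0.1), other filters (none, or 10 counts in every library), fits of only the groups compared, mitochondrial genes left out, a GC correction (spline with 5 degrees of freedom), a replicate block, and each library left out. Summed gene copies and the removal of 3 libraries together were chosen after seeing the data. Same-numbered gRc and vehicle libraries deviated together (r = 0.437, 0.267 and 0.846), which was taken as pairing. The block changed no call between them, but 0 of all genes were called there with or without it. Other groups had at least 1 pair at or below 0.1.

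The 36 genes, the lists beside them and their roles were chosen with earlier results of these data known. Library values are given for genes that passed in either comparison with H2O2, both genes of each isozyme pair, and Hif1a, Epas1, Egln1, Egln3, Vegfa and Slc2a1. Those of Gapdh were added after its values were seen. From each other list, genes were named from the 6 with the smallest p in H2O2 against vehicle.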

Additional observations from a re-analysis of the deposited data

How the results depend on the processing

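Of the 36 genes, the number that passed in gRc + H2O2 against gRc was 6, between 6 and 8 with single libraries left out, 5 with limma on TPM, 8 with DESeq2 and 12 with vehicle replicates 1 and 3 and gRc replicate 3 left out together. In H2O2 against vehicle it was 6, between 5 and 7 with single libraries left out, 5 with limma and 7 with DESeq2, and the fit without the 3 libraries rests on 1 vehicle library, assumed to vary like the other groups. Slc2a1, Hk2, Vegfa, Ndrg1 and Ero1l passed in all 25 alternatives of both comparisons. For the averaged effect of H2O2 the count was 12, between 8 and 16 with single libraries left out, and the fit of only the groups compared could not be made for it or for the interaction. Counts for gRc and for the interaction were 0 in every alternative, between 0 and 0 with single libraries left out. Of the isozyme ratios 5 passed, between 5 and 6 with single libraries left out. Under a replicate block, which allows 64 arrangements, the adjusted p of these 5 was 0.05, and 0 passed. Each was at the smallest p the block can give, and only more ratios at that p would lower the adjusted p. The block thus says nothing about their stability. Same-numbered libraries with and without H2O2 did not all deviate together, and with the block as a term in edgeR 7 genes passed in gRc + H2O2 against gRc, 6 in H2O2 against vehicle and 12 in the average. No called result changed sign in any alternative. Results that were not called did in places, among them Pdk1 in H2O2 against vehicle (-0.49 to 0.05 on the log2 scale) and the ratio of Aldoa to Aldoc (-0.19 to 0.63). The number of all genes called in H2O2 against vehicle was 2323, and 739 in a fit of only the groups compared, 1492 with limma and 1267 to 1412 without an H2O2 library. In gRc + H2O2 against gRc it was 2332, and 1459 with limma, 5153 without the 3 libraries, 1186 to 1269 without a gRc + H2O2 library and 1380.0 without gRc replicate 1. The causes were not tested. Precision is limited by 3 libraries a group and, for Epas1, Aldoc, Slc2a3 and Slc2a4, by low counts. Only RNA was measured.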
